A study of Nomascus leucogenys and Hoolock leuconedys and Nomascus gabriellae with 23 samples.

Results

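MORC1, TDRD12, TDRD5, HORMAD2, TEX14 and MPHOSPH8 are genes of meiosis, germ cell development and transposon silencing, and LAVA insertions assigned to them were followed across 23 gibbons of 4 genera. Every site of the deposited insertion table that carries 1 of these 6 gene names was taken, whatever its location class and number of carriers. This gave 8 of 5490 sites and 6 of 2607 gene names. The genes were picked with an earlier analysis of the same table known, so the presence of LAVA in them is how they were chosen and is no finding. The animals were 3 Hoolock leuconedys, 2 Symphalangus syndactylus, 5 Hylobates (2 H. moloch, 1 H. lar, 1 H. pileatus and 1 H. muelleri) and 13 Nomascus (2 N. gabriellae and 11 N. leucogenys). All gave DNA from blood, and no age, sex or kinship is given for them. The measured value is a presence call, 1 or 0, for each site and animal. No call was missing at the 8 sites, against 0.712% over the table. The table gives no read numbers, so the sequencing depth behind a call is unknown, and so is whether a carrier has 1 copy or both.

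LAVA is a composite, non-autonomous retrotransposon of gibbons that is thought to move with the enzymes of LINE elements. A new copy is passed on only if it arises in cells that give rise to eggs or sperm, and mammalian germ cells hold transposons down with piRNAs (small RNAs bound by PIWI proteins), DNA methylation and repressive chromatin. Among the 6 genes, MORC1 encodes an ATPase needed for transposon repression in the male germ line of mice. TDRD12 and TDRD5 encode Tudor-domain proteins of the piRNA pathway, each required in mice for sperm formation. HORMAD2 encodes a protein of the meiotic chromosome axis that marks chromosomes that have not paired, and TEX14 encodes a component of the bridges that join dividing germ cells in mice. MPHOSPH8 encodes the chromodomain subunit of the HUSH complex, which silences repeats in many cell types and is not restricted to the germ line. None of what follows measures the expression of these genes.

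All 8 insertions were classed as intronic, a class that holds 87.3% of the 3143 sites that have a gene name. Positions follow the deposited table, with bases numbered from 1. No source used here names its genome build. MORC1 (ENSG00000114487) held 2 sites on chromosome 21, at 12496106 (1356 bp, antisense to the gene) and at 12564098 (1838 bp, sense), which lie 67992 bp apart. TDRD12 (ENSG00000173809) also held 2, both sense, on chromosome 10 from 44482791 to 44483681 (891 bp) and at 44487528 (459 bp), with 3847 bp between them. Over the table, 530 pairs of adjacent sites share a gene name and chromosome, with a median distance of 34450.5 bp, and 11.1% of these pairs lie closer together than the TDRD12 pair.

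TDRD5 (ENSG00000162782) held 1 antisense site of 1725 bp on chromosome 12 from 22687471 to 22689195. HORMAD2 (ENSG00000176635) held 1 sense site of 2047 bp on chromosome 7b from 60205880 to 60207926. The TEX14 (ENSG00000121101) site of 452 bp lay antisense on chromosome 14 at 9326507. The MPHOSPH8 (ENSG00000196199) site of 1837 bp lay antisense on chromosome 5 at 65410492. The RefSeq gene table of assembly Asia_NLE_v1 places each of the 6 genes on the chromosome that the deposited table gives. Which intron a site lies in, and its distance to an exon, could not be computed without an annotation of the build.

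The table holds sites in 2 forms, and the 8 sites divide between them. The 891 bp TDRD12 site and the TDRD5 and HORMAD2 sites have a position that spans the whole element and are called interval sites here. The other 5 have a position of a single base with the length given beside it. For every one of the 4372 single-base sites, that length equals the stretch of the LAVA consensus it was matched to, so it follows from the match. The MPHOSPH8 element and the sense MORC1 element covered the consensus from base 1 to its end, at base 1838 and 1839. Only 11.4% of intronic single-base sites begin at base 0 or 1. The antisense MORC1 element lacked the first part and began at base 483. The shorter TDRD12 element and the TEX14 element kept only the end of the consensus, from bases 1380 and 1386. Lengths near these are common, since 1027 of the single-base sites (23.5%) are 440 to 470 bp long and 105 intronic ones share the TEX14 length of 452 bp.

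**Figure D1:**
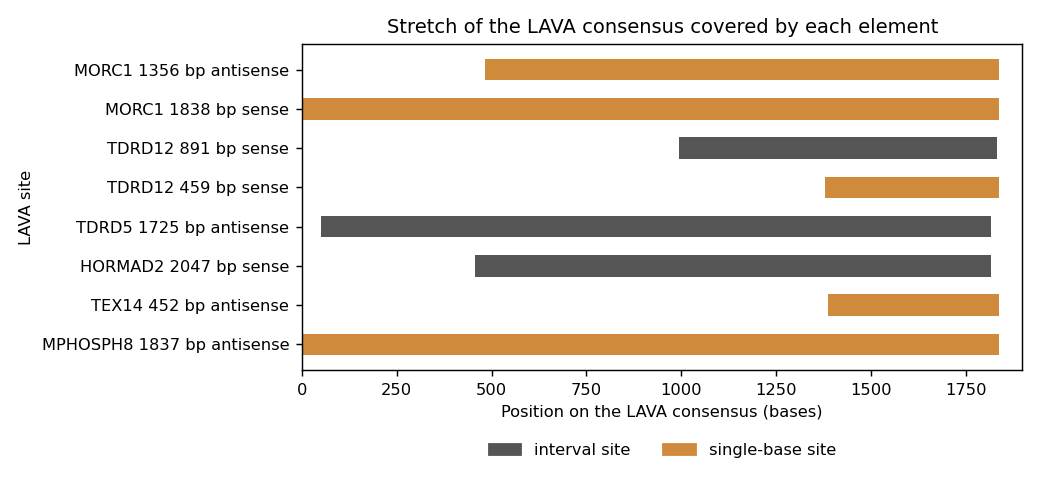
Horizontal bars show which bases of the LAVA consensus (x axis) each of the 8 elements (y axis) was matched to, coloured by the form of the site. The MPHOSPH8 element and the sense MORC1 element span the consensus from base 1, and the TEX14 and shorter TDRD12 elements begin at bases 1386 and 1380.

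At all 1118 interval sites the length equals the span of the position. The HORMAD2 element was 687 bp longer than the 1360 bp of consensus it was matched to. An excess of at least that size was found at 163 of 1118 interval sites (14.6%). The TDRD12 interval element was 52 bp longer than its match of 839 bp, and the TDRD5 element was shorter than its match of 1766 bp, a difference of -41 bp.

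Carriers of each site were compared between 1 genus and all other animals, for each of the 4 genera in turn, with two-sided Fisher's exact tests adjusted by the Benjamini-Hochberg method over all 5490 sites of a comparison. The question is which of the insertions differ in frequency between lineages. A site was called when its adjusted p was under 0.05. MORC1 was the gene with called differences in Hoolock, and MPHOSPH8 the gene with one in Symphalangus. The MPHOSPH8 call follows from the table listing only sites with at least 2 carriers, as set out below. The same holds for all 526 sites called more frequent in Symphalangus, so the call is no finding about the gene. The call of the antisense MORC1 site is limited by the same listing rule. Of the 8 sites, 2 were called more frequent in Hoolock, where 18.7% of all sites were called more frequent and 0.182% less frequent. In Symphalangus 1 of 8 was called more frequent, against 9.58% of all sites, with 0.0364% less frequent. These counts are too small to be set apart from the shares over the table. None of the 8 was called in Nomascus or Hylobates by Fisher's exact test. Over all sites, 3.01% were called more frequent and 4.79% less frequent in Nomascus, and 11.5% and 0.856% in Hylobates. The Nomascus balance turns with the sites tested, with 157 more frequent and 123 less frequent among sites of at least 540 bp, against 165 and 263 over all sites. At an unadjusted p under 0.05 there was 1 of the 8 in Nomascus, the sense MORC1 site (p = 0.00749), and 0 in Hylobates.

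The antisense MORC1 insertion was carried by all 3 Hoolock animals and by 0 of the 20 other animals (Fisher's exact test, adjusted p = 0.00326). With 1 animal left out at a time its adjusted p was 0.00372 to 0.0237, and it stayed called. The same carriers, and so the same p, were found at 947 other sites, 463 of them in a gene body. A site is listed only with at least 2 carriers, so this site is in the table through its Hoolock carriers alone. Of 1167 sites carried in Hoolock and no other genus, 948 were carried by all 3 animals. The test does not take the listing rule into account, so this call is no finding about the gene. The sense MORC1 insertion was carried by all 3 Hoolock animals and by both Symphalangus animals, and by none of the 5 Hylobates and 13 Nomascus. Its carriers were 3 of 3 in Hoolock and 2 of 20 in the other genera (Fisher's exact test, adjusted p = 0.0299). That call was lost when any 1 of the 3 Hoolock animals was left out, with adjusted p up to 0.129. Set against all others, Symphalangus had 2 of 2 carriers and the other genera 3 of 21, which missed the threshold (adjusted p = 0.33, Fisher's exact test). Nomascus had 0 of 13 carriers and the other genera 5 of 10, which also missed it (adjusted p = 0.0545, Fisher's exact test). A count of 0 of 13 leaves room for a carrier frequency of up to 24.7% in Nomascus (exact 95% interval, counting error only).

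The carriers of the sense MORC1 insertion, all animals of Hoolock and Symphalangus and no other, were those of 40 sites of the table, of which 16 others lie in a gene body. The same pattern in Hoolock and Hylobates was found at 17 sites, in Symphalangus and Hylobates at 23, in Symphalangus and Nomascus at 2, and in Hoolock and Nomascus and in Hylobates and Nomascus at 1 each. With carriers in any of their animals, 86 sites were carried in Hoolock and Symphalangus and in no other genus, against 175 in Hoolock and Hylobates only and 78 in Hoolock and Nomascus only. There were 130 in Symphalangus and Hylobates only, 59 in Symphalangus and Nomascus only and 177 in Hylobates and Nomascus only. The number of animals per genus differs between these counts, so they are not ranked here.

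The MPHOSPH8 insertion was carried by both Symphalangus animals and by 0 of the 21 others (Fisher's exact test, adjusted p = 0.0411). The table lists only sites with at least 2 carriers. A site of Symphalangus alone is therefore carried by both animals by construction, and all 526 such sites share this p. Its unadjusted value of 0.00395 is the smallest that 2 animals against 21 allow. Without either of the 2 animals the adjusted p was 0.471, and Fisher's exact test called 0 sites of the table in that comparison, with 530 at an unadjusted p under 0.05.

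**Figure D2:**
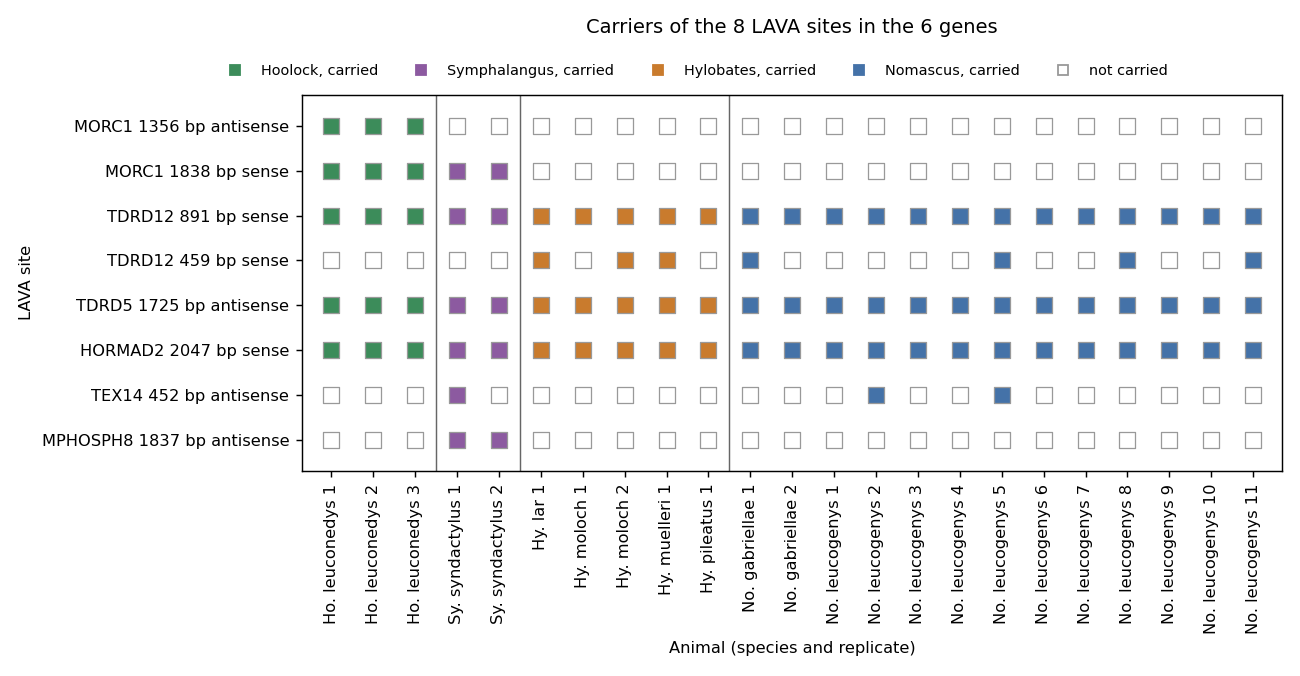
Presence of each of the 8 insertions (rows) in each of the 23 animals (columns, ordered by genus). A filled square is a carrier, coloured by genus, and an open square a non-carrier. The MORC1 and MPHOSPH8 insertions fill whole genera or none, 3 insertions are carried by all 23 animals, and the 459 bp TDRD12 and 452 bp TEX14 insertions are scattered.

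The 3 interval insertions, in TDRD12, TDRD5 and HORMAD2, were carried by all 23 animals. No difference between genera can be seen at them. With 13 of 13 carriers, the carrier frequency in Nomascus could be as low as 75.3%. With 5 of 5, that in Hylobates could be as low as 47.8% (exact 95% intervals, counting error only). The 3 Hoolock and 2 Symphalangus animals allow lower values still. Among intronic interval sites, 445 of 543 (82.0%) were carried by every animal, as these 3 were. Among single-base sites, 10 of 4372 (0.229%) were. All 1118 interval sites have a carrier in Nomascus, and the form and the number of carriers cannot be told apart at these genes.

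The 459 bp TDRD12 insertion was carried by 7 animals of 2 genera and was not shared by all animals of either. Its carriers were H. lar replicate 1, H. moloch replicate 2 and H. muelleri replicate 1 in Hylobates, and N. gabriellae replicate 1 with N. leucogenys replicates 5, 8 and 11 in Nomascus. The other H. moloch and the other N. gabriellae did not carry it. Hylobates had 3 of 5 carriers (60.0%, exact 95% interval 14.7 to 94.7) and the other genera 4 of 18 (22.2%), and the difference of 37.8 percentage points missed the threshold (adjusted p = 0.543, Fisher's exact test). Nomascus had 4 of 13 (30.8%, exact 95% interval 9.09 to 61.4) and the other genera 3 of 10 (30.0%). No other site in the table had the same 7 carriers.

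The TEX14 insertion was carried by 3 animals of 2 genera, Symphalangus replicate 1 and N. leucogenys replicates 2 and 5. Symphalangus had 1 of 2 carriers and the other genera 2 of 21, and Nomascus had 2 of 13 and the other genera 1 of 10. Neither difference was called (adjusted p = 1 in both, Fisher's exact test). No other site had the same 3 carriers here either. N. leucogenys replicate 5 was the 1 animal with both scattered insertions.

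Both scattered insertions are under 540 bp, a length limit taken from an earlier analysis of this table. Among the 1567 single-base sites under that limit, 460 (29.4%) were carried in 2 or more genera but by all animals of none, as in TDRD12 and TEX14. Among the 2805 single-base sites of at least 540 bp there were 341 (12.2%). The reverse pattern, all or none of the animals in every genus, as at the MORC1 and MPHOSPH8 insertions, was found at 18.3% of the shorter and 53.8% of the longer sites. The table holds no read support, so no call at these sites could be weighed.

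**Figure D3:**
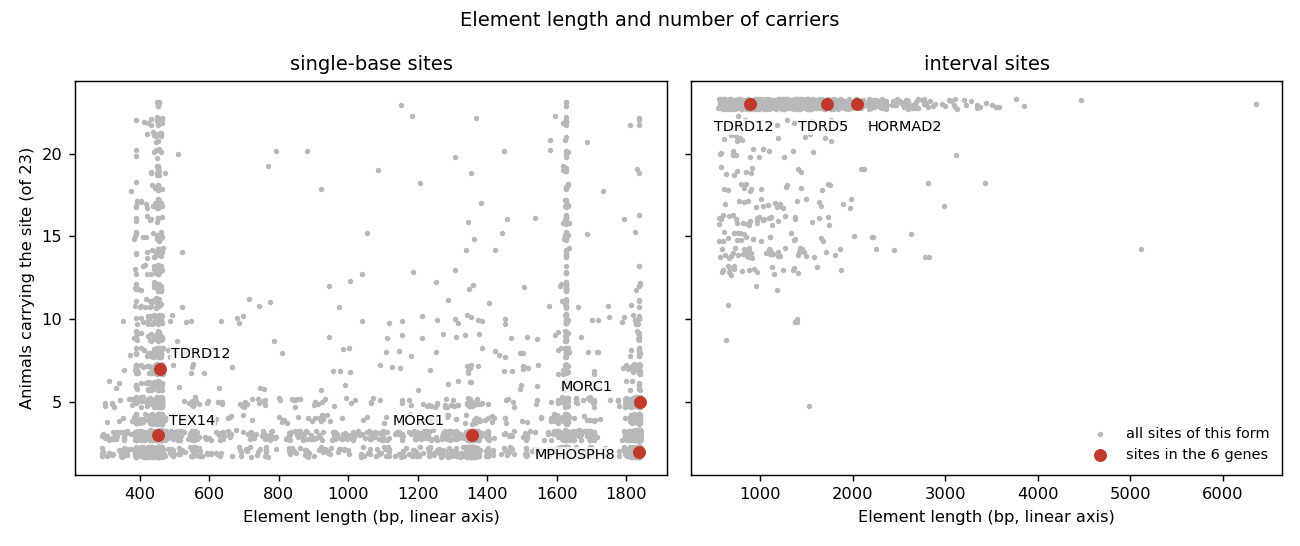
Number of animals carrying a site (y axis, of 23) against element length (x axis, in bp) for single-base sites and interval sites. Grey points are all sites of the form, spread vertically by up to 0.3 to show overlap, and red points the 8 sites. The 3 interval insertions lie at 23 carriers, and the 5 single-base insertions lie at 2 to 7.

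Per animal, the number of the 8 insertions carried ran from 3 to 6. The 3 Hoolock animals carried 5 each and the Symphalangus animals 6 and 5. Hylobates animals carried 3 or 4, with a median of 4, and Nomascus animals 3 to 5, with a median of 3. Of these, 3 are the insertions that every animal carries. Totals over the whole table were 2709 to 2882 sites in Hoolock, 2267 and 2274 in Symphalangus, 1995 to 2411 in Hylobates and 1478 to 1736 in Nomascus. A count over chosen sites is given as a description and was not tested.

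Orientation was mixed, with 4 of 8 insertions sense to the gene (50.0%, exact 95% interval 15.7 to 84.3), against 38.4% of all 2745 intronic sites. By form, 2 of 3 interval and 2 of 5 single-base insertions were sense, against 25.6% and 41.6% of intronic sites of the same form. Exact 95% intervals were 9.43 to 99.2% for the 3 interval insertions and 5.27 to 85.3% for the 5 single-base insertions. Each interval covers the share it is set beside. The intervals treat sites as independent, though MORC1 and TDRD12 hold 2 each. The median length was 1540.5 bp for the 8 sites and 1309 bp for all sites, and the median number of carriers was 6 for the 8 sites and 4 for all sites. Within a form the median numbers of carriers were equal, at 23 for the 3 interval insertions and for all intronic interval sites, and at 3 for the 5 single-base insertions and for all intronic single-base sites. Median lengths were 1725 bp for the 3 interval insertions and 1329 bp for all intronic interval sites. For the 5 single-base insertions and all intronic single-base sites they were 1356 and 1344 bp.

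Genes with the same pattern of carriers were named by a fixed rule, the highest Jaccard index of carriers (animals that carry both over animals that carry either) and then the closest length. The antisense MORC1 site was matched at an index of 1 by sites in RGS6 and TMEM163, each 1357 bp long. For the sense MORC1 site 13 candidate sites reached an index of 1, among them a 1827 bp site in GPAT4. The MPHOSPH8 site was matched by FAM129C and SCIN, both of the same length of 1837 bp, among 252 candidates with an index of 1. The interval insertions share their carriers with 381 candidate sites, the closest in length being those of SCAPER and BBX for TDRD12, MGA and EBPL for TDRD5, and FAM81A and PDE4C for HORMAD2. The scattered sites had no such match. The nearest to the 459 bp TDRD12 site were EI24 (0.556) and MKLN1 (0.5), and to the TEX14 site FRS3 and NCOA2 (0.667 each), all over 23 animals. These are likenesses of presence calls, and most are ties.

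The wider pathway was described with 5 lists of 129 genes in all, written from general knowledge of germ cells and silencing. LAVA sites were assigned to 14 of them, and 17 sites in all. The piRNA list of 31 genes had 5 with a site, the list of HUSH and other heterochromatin silencing genes 2 of 24, the meiotic axis and synapsis list 2 of 24, the meiotic recombination list 3 of 28, and the list of germ cell bridge and regulator genes 2 of 23. The 6 genes above are among the 14 and were chosen because they hold a site. Without them, 8 of 123 remained. Of the 115 of these found as protein-coding genes in the RefSeq table, 6.09% had a site. With the 6 genes kept, the share was 10.7% of 121. Of all 20524 protein-coding symbols of that table, 9.16% had a site. Genes of the lists were looked up under older and newer symbols, and these 20524 only as written. Taking the 6 out removes only genes with a site and lowers the share by construction. Keeping them counts genes chosen for holding a site. Neither share can therefore be read as more or fewer genes with LAVA. Gene lengths on the build are not given, so the shares are not adjusted for them and were not tested.

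The sites carried by every animal among the further genes were again interval sites. MAEL, a piRNA pathway gene, had an 843 bp element in the class named terminator. ANKRD31, which acts in meiotic DNA break formation in mice, had an intronic element of 626 bp, and HELLS, a chromatin remodelling helicase gene needed for DNA methylation, one of 1950 bp. All 3 were carried by 23 of 23 animals. RNF17, a germ cell gene that encodes a protein with Tudor domains, held 2 sense intronic sites. The 1688 bp site was carried by both H. moloch and by H. muelleri, 3 of 5 Hylobates and 0 of 18 others (Fisher's exact test, adjusted p = 0.0458). This call is made at a site listed through its Hylobates carriers alone, which the test does not take into account. That call was lost among sites of at least 540 bp (adjusted p = 0.0521), and when any 1 of the 13 Nomascus animals or of its 3 carriers was left out, with adjusted p up to 0.165. The 1338 bp RNF17 site and the GCNA site of the same length, in a gene for a nuclear protein of germ cells, were carried by both Symphalangus animals alone and share the p of the MPHOSPH8 site, also when an animal is left out. Of the 9 sites in these further genes, 1 was called more frequent in Hylobates, against 11.5% of all sites, and 2 in Symphalangus, against 9.58%. Fisher's exact test called 0 of 9 in Hoolock, against 18.7% more frequent over all sites, and 0 of 9 in Nomascus, against 3.01% more and 4.79% less frequent. At an unadjusted p under 0.05 there were 2 in Hoolock and 0 in Nomascus.

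Of the remaining single-base sites, those in HSF2BP (550 bp) and in C11orf80 (1604 bp) were carried by 2 of 3 Hoolock animals and by 0 of 20 others. HSF2BP encodes a BRCA2-binding protein of meiotic recombination, and C11orf80 a partner of the SPO11 nuclease. Both missed the 0.05 limit (adjusted p = 0.0512, Fisher's exact test) and passed it when only single-base sites were tested (adjusted p = 0.0412). With 1 animal left out at a time, the adjusted p was 0.0225 to 0.349 at HSF2BP and 0.0237 to 0.349 at C11orf80 (Fisher's exact test). The carriers were replicates 2 and 3 for HSF2BP and replicates 1 and 2 for C11orf80. At each of these sites 2 carriers are the fewest that the table lists. SUN1, which encodes a nuclear envelope protein that tethers meiotic telomeres, had a 463 bp sense insertion in 9 animals, 2 of 3 Hoolock, 0 of 2 Symphalangus, 2 of 5 Hylobates and 5 of 13 Nomascus. It has the length and the scattered carriers of the TDRD12 and TEX14 insertions, and no difference was called at it (Fisher's exact test, adjusted p = 1 in each of the 4 comparisons).

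**Figure D4:**
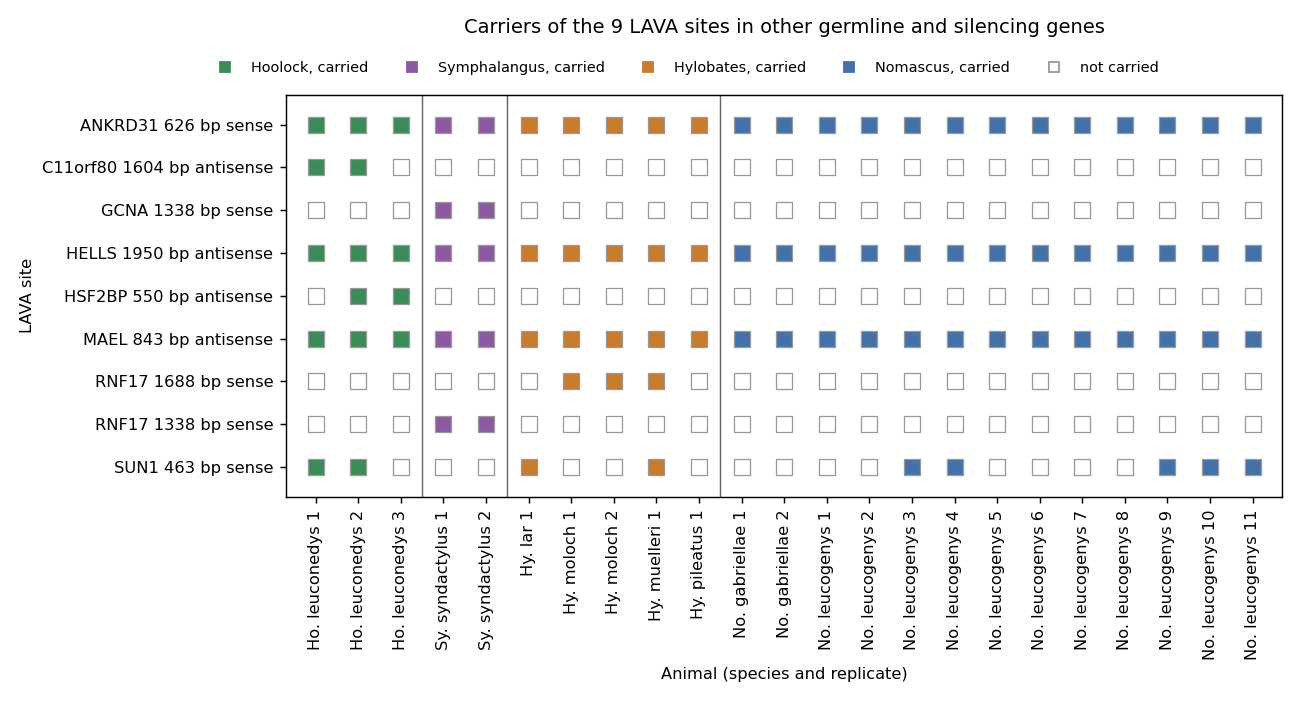
Presence of the 9 insertions in the other germline and silencing genes (rows) in each of the 23 animals (columns, ordered by genus). Filled squares are carriers, coloured by genus. The ANKRD31, HELLS and MAEL insertions are carried by all 23 animals, and the SUN1 insertion by 9 animals of 3 genera.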

How the data were processed

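Per the labels' protocols, DNA from the blood of 23 gibbons was sheared and made into Illumina libraries. The submitters' processing notes name BWA. No source used here names the build, the annotation, or how insertions were called and filtered. The authors deposited 1 table of presence calls (1, 0 or NA) per LAVA site and animal, and, per the file headers, each site's position, length, consensus position, orientation, location class and gene name (human Ensembl). Each of the 23 call columns bears an animal's label, and replicates are numbered in order of deposit.

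Missing calls counted as not carried. Carriers in 1 genus and in all other animals were compared at every site with two-sided Fisher's exact tests (scipy 1.17.1), Benjamini-Hochberg adjustment over 5490 sites per comparison and a threshold of 0.05. Tests treat animals as independent, although their kinship is not given. A p-value measures how unusual the split of carriers would be if they were placed at random among these animals. It does not measure a spread among animals. The tests were tested on simulated data. Intervals are exact (Clopper-Pearson) at 95% and cover counting error only. Alternatives changed the handling of missing calls, the sites tested, the adjustment and, 1 at a time, the animals. The genes and lists were chosen with earlier results of these data known. All sites of the 6 genes and of the listed genes were named, and like genes as stated in the text, of which 1 is not reported here. No genome sequence was used.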

Additional observations from a re-analysis of the deposited data

How the results depend on the processing

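No call at the 8 sites changed when only single-base sites or sites of at least 540 bp were tested or when the 4 comparisons were adjusted together. The 8 sites have no missing calls, so leaving those out or counting them as carried could move only the adjustment, and changed no call. The 3 interval sites have no value among single-base sites, nor the 2 shortest sites among those of at least 540 bp. With 1 of the 23 animals left out at a time, 441 of 460 results at the 5 sites that vary between animals kept direction and call (the 3 sites carried by all animals cannot change), and 5 lost a call: the sense MORC1 site in Hoolock without any of its 3 animals, and the MPHOSPH8 site in Symphalangus without either. The 14 that turned direction were differences that were not called. At the 459 bp TDRD12 site Nomascus minus the others ranged from -5.00 to 8.55 percentage points. At the TEX14 site the range was -1.67 to 15.4 in Nomascus and -9.52 to 90.5 in Symphalangus. At the SUN1 site it was -6.67 to 5.13 in Nomascus and -13.9 to 11.1 in Hylobates.

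The numbers of sites called over the table moved more. Among sites of at least 540 bp, 280 were called in Nomascus and 312 in Hylobates, against 428 and 677 over all sites. With 1 animal left out the ranges were 352 to 660 in Nomascus (over 1.5 times without any 1 Hoolock or Symphalangus animal), 389 to 756 in Hylobates (under it without any 1 Nomascus animal, either H. moloch or H. muelleri), 1001 to 1058 in Hoolock and 0 to 535 in Symphalangus (0 without either of its animals). The Nomascus counts without 1 Hoolock or Symphalangus animal were 172 to 179 more frequent and 470 to 481 less frequent. The cause was not tested. The numbers of sites per gene and per animal were the same in gene body classes only, and the sense share the same at intronic sites only, since all 8 sites are intronic. Of the 5 lists, 14 genes had a site, or 13 in gene bodies, without MAEL. No paired analysis was possible because each animal has 1 column of calls and belongs to 1 genus. Depth per animal is unknown.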

Other observations

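Of the 12 protein-coding neighbours of the 6 genes in the RefSeq table, 3 are named at a LAVA site: MTMR3 beside HORMAD2, NUDT19 beside TDRD12 and TPTE2 beside MPHOSPH8. A 1347 bp site named for HORMAD2-AS1, a non-coding gene, lies 78416 bp from the HORMAD2 insertion on chromosome 7b (60127464) and was carried by the 3 Hoolock animals alone. The table gives 1 gene name per site, and whether this site also lies in HORMAD2 could not be checked. In MTMR3, a lipid phosphatase gene, a 2672 bp interval insertion 189225 bp away was carried by all 23 animals. NUDT19 had a 1378 bp antisense insertion 111914 bp from the nearer TDRD12 site, carried by the 3 Hoolock animals alone. TPTE2 had a 1343 bp antisense insertion carried by both Symphalangus animals alone, 5136720 bp from the MPHOSPH8 site in the deposited positions. Beside means the RefSeq order here, and whether the deposited positions also place TPTE2 next to MPHOSPH8 could not be checked. The sites nearest to the TDRD5, TEX14 and MPHOSPH8 insertions were intergenic, at 286639, 53279 and 38870 bp.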
